A study of Homo sapiens with 14 samples.

Results

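The RelA ChIP of L1236 cells, set against input DNA, gave 492 of the 14865 ChIP-seq regions that were found for any of 4 NF-κB subunits, or 3.31% of them. A region was included when it carried a RelA summit, the position of the highest RelA signal, and every such region was also marked as called for RelA. L1236 is a Hodgkin lymphoma cell line, and it was grown in serum-containing medium without any treatment named in the labels. RelA was precipitated in 2 replicates with 1 rabbit polyclonal antibody against its p65 protein. Companion ChIPs were made for RelB, p50 and p52 with 2 libraries each, where the p52 replicates used different antibodies, and 6 libraries of input DNA, which is sheared chromatin DNA without an antibody, gave the background. All libraries came from this 1 line, so the values describe L1236 and not Hodgkin lymphoma in general.

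RelA is the subunit with a transactivation domain that pairs with p50 in the canonical NF-κB pathway. In resting cells the pair is held in the cytoplasm by IκB proteins, and IKK signalling releases it so that it can bind κB sites in DNA. Genes for IκB proteins, for A20 and for the NF-κB subunits themselves are classical targets and form feedback loops. Hodgkin lymphoma cells are known for NF-κB activity without an outside stimulus.

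Promoter sequences are shown for named genes with a RelA call at their start site. A RelA region overlapped the transcription start site (TSS) of 34 genes with a known name, and 27 of these were matched by symbol to RefSeq promoters, each running from 250 bases before to 50 bases after a start site (GRCh38.p14). The following stretches of the promoter strand, upstream of the start, are shown because they hold the κB consensus, which is in capitals. The deposited regions are on hg18, so these stretches mark the same genes but were not placed under the RelA summits.
NFKBIA, chr14:35404796-35404855, minus strand: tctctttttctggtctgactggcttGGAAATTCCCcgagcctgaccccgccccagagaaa
TNFAIP3, chr6:137867167-137867238, plus strand: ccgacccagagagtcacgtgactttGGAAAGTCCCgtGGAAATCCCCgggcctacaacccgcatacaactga
BIRC3, chr11:102317260-102317319, plus strand: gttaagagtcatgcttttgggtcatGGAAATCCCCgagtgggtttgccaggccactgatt
NFKB1, chr4:102501285-102501344, plus strand: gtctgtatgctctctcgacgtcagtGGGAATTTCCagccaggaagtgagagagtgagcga
TNFRSF9, chr1:7940878-7940938, minus strand: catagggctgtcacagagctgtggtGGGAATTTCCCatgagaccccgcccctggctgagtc
IRF1, chr5:132490789-132490848, minus strand: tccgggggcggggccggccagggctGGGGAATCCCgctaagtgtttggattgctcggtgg
REL, chr2:60881502-60881562, plus strand: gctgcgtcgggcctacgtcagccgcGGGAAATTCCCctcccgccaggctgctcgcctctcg
TNFAIP3 held 2 separate matches between positions −67 and −46 from its start, and TNFRSF9 and REL each held 2 overlapping matches in a run of 11 bases. Over both strands, 15 of the 40 promoters of the 27 genes held the κB consensus (37.5%), against 5.91% of all 35116 RefSeq promoters. By gene, 14 of the 27 held it in at least 1 promoter (51.9%), against 7.09% of all 27305 genes. The looser pattern GGGNNNNNCC, searched on both strands and containing every match of the consensus, was present in 31 of the 40 promoters (77.5%) and in 58.7% of all promoters. JUNB, ICAM1, RELA and BCL2L1 had no consensus match in these windows. The genes that could be named come mostly from lists of genes regulated in the study, so these shares describe the named genes and not all genes with a RelA region on the TSS.

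Every RelA call carries 5 measures. The fold enrichment compares the merged RelA replicates with input at the summit. Pileup is the number of overlapping RelA fragments there. The signal values are scores of the individual replicates, and reads per kb of region width give the density over the whole region. Fold enrichment had a median of 6.23 (95% interval of the median over regions 5.87 to 6.41), with quartiles at 4.72 and 7.67 and a range from 1.92 to 47.4. The median pileup was 23 fragments (22 to 24), and it ranged from 11 to 253. The regions held 58160 RelA reads, from 19 to 4410 each with a median of 54, and 38.4 reads per kb in the middle (36.7 to 39.8). Signal value 1 had a median of 94.6 and signal value 2 of 65.5. All values other than the signal values come from merged replicates, so no error between replicates can be given for them, and the intervals cover counting error over regions only.

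RelA read density separated called from uncalled regions only in part. The calls were made from the same RelA reads, so a higher density in called regions follows in part from the selection. In the 14373 regions without a RelA call the median was 15.3 RelA reads per kb, with quartiles at 10.8 and 20.8, so the called regions were 2.51 times as dense at the median. No RelA region lay below the median of the uncalled ones (0 of 492). Conversely, 348 uncalled regions (2.42%, 2.18% to 2.69%) reached the median density of the RelA regions, and 32 RelA regions exceeded the densest uncalled region, at 241 reads per kb. For comparison, the same ratio of medians was 2.68 for RelB, 2.24 for p50 and 2.53 for p52, each in its own regions. The RelA calls, 3.31% of the union regions, held 18.5% of the 315151 RelA reads counted in the union. RelB calls, 26.8% of the regions, held 60.7% of the RelB reads, so these read shares also reflect the number of calls.

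**Figure D1:**
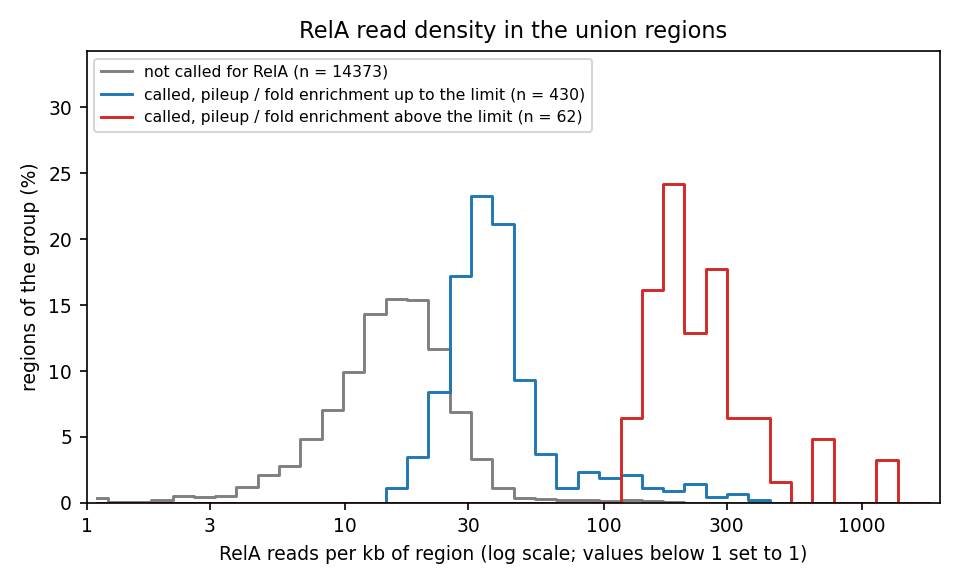
The plot gives the percentage of regions in each group (vertical axis) by RelA reads per kb of region (horizontal axis, log scale), with grey for 14373 regions not called for RelA, blue for 430 called regions whose pileup divided by fold enrichment is up to 16.2, and red for 62 called regions above that value. The grey and blue curves overlap, around medians of 15.3 and 36 reads per kb, and the red curve starts at 123 reads per kb.

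Fold enrichment and read density put different RelA regions first. Of the 10 regions with the highest fold enrichment and the 10 with the most reads per kb, 1 was shared. It lay at chr8:72918261-72919462 (hg18), overlapped the TSS of the gene listed as ENSG00000178860, and had a fold enrichment of 47.4, a pileup of 151, signal values of 1977.9 and 1401.9, and 489 reads or 407 per kb. It ranked highest of all RelA regions in fold enrichment and in both signal values. A second region of the same gene, chr8:72916903-72917934, had a fold enrichment of 19.6 and signal values of 483 and 246. The next strongest region, chr2:8738558-8740808 in ENSG00000115738, had a fold enrichment of 25.4, a pileup of 96, and signal values of 765 and 650. These 2 genes could not be named from the tables used here.

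Among the rest of the 10 strongest regions by fold enrichment were well known feedback genes. The NFKBIA region (IκBα, the inhibitor that holds NF-κB in the cytoplasm) had a fold enrichment of 19.9 and signal values of 399 and 200. The TNFAIP3 region (A20, an enzyme that switches NF-κB signalling off) had 18.9, with signal values of 403 and 182. The BIRC3 region (cIAP2, a ubiquitin ligase of TNF receptor complexes that protects from cell death) had 15.5, with signal values of 329 and 193. All 3 overlapped the TSS. A region whose closest TSS was that of TYK2, a Janus kinase, at −7154 bp, reached 17.9. Its closest gene was another one, at 4277 bp. The signal values of this region, 525 and 27.9, ranked 6 and 435 among the 492 regions. The remaining regions had no gene name and lay at chr2:208101554-208104426 (19.9), chr22:33983095-33984358 (17.5) and chr14:102312382-102314498 (15.7). All 10 were called for all 4 subunits, as were 349 of the 492 RelA regions (70.9%), and 7 overlapped a TSS. A fold enrichment of at least 10 was reached in 45 RelA regions, of which 42 were called for all 4 subunits, 33 touched a gene and 20 overlapped a TSS.

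The densest regions were of another kind. Besides the region on chromosome 8, the 10 with the most reads per kb had fold enrichments between 2.95 and 4.94. The densest lay at chr6:58884033-58887415, with 4410 RelA reads or 1303.6 per kb, a pileup of 253 and a fold enrichment of 4.94, and the closest TSS was at a distance of −488429 bp, where a negative distance is upstream of the TSS. The next was chr1:121185486-121187111, with 2007 reads, 1234.3 per kb, a pileup of 216 and a fold enrichment of 4.85, at a TSS distance of −448040 bp. The others were chr1:154452704-154453431 (716 reads per kb), chr1:91625223-91625884 (663), chr7:61606205-61607158 (652), chr11:84872498-84873052 (445), chr17:30502074-30502633 (407), chr20:26136497-26138665 (389) and chr6:119600104-119600544 (376). In each of these 9 regions pileup was more than 27 times the fold enrichment, against 2.22 to 3.78 times in the 10 strongest regions by fold enrichment.

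Pileup divided by fold enrichment follows the background that was set against each summit, and it split the RelA regions. Its median was 3.25, and 62 regions (12.6%, 9.96% to 15.8%) lay above 5 times that median, a limit of 16.2. These 62 regions are called high-background regions below. They had a median pileup of 67.5 and 212 reads per kb, but a median fold enrichment of 3.17 (range 1.92 to 5.86). The other 430 regions had a median pileup of 22, 36 reads per kb and a fold enrichment of 6.56 (2.55 to 47.4). The high-background regions were 12.6% of the regions and held 44.8% of the RelA reads in called regions. The cut does not mark a gap in the values, and its cause was not tested. The ratio reached 22.9 at the 95th percentile of the RelA regions, against 6.79 for RelB, 5.55 for p50 and 5 for p52 in their own regions. However, 59 of the 62 regions were also called for RelB. They form a smaller part of the 3984 RelB calls than of the 492 RelA calls. The percentiles therefore do not make these regions particular to RelA.

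**Figure D2:**
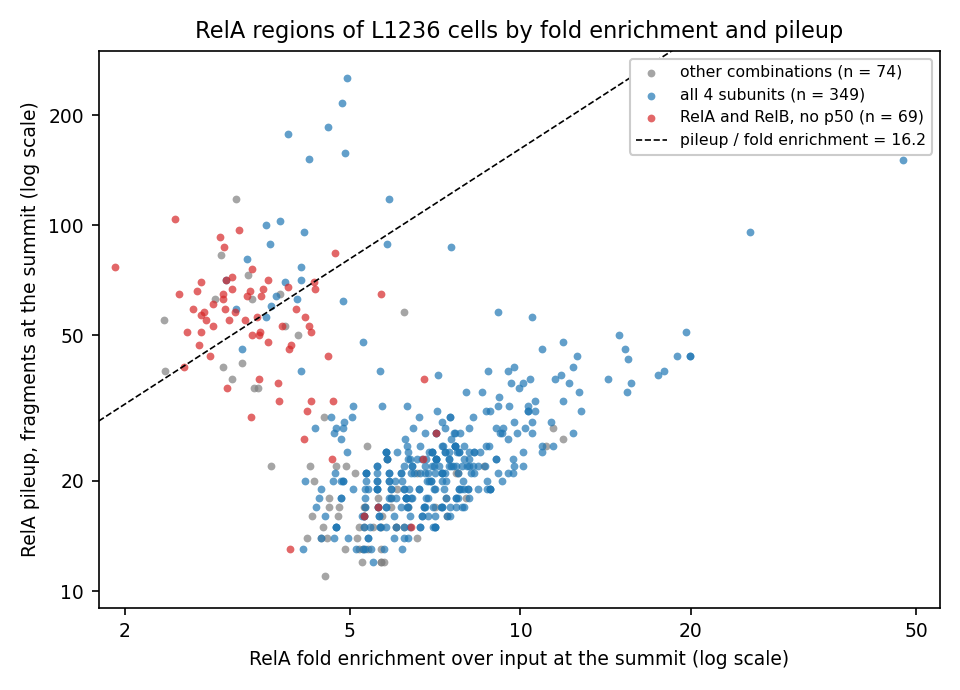
Each point is 1 of the 492 RelA regions, with the fold enrichment over input on the horizontal axis and the pileup on the vertical axis (both log scales), and the colours give the combination of subunits called. The dashed line marks a pileup of 16.2 times the fold enrichment. The 62 points above it have fold enrichments of at most 5.86, and red points, regions with RelA and RelB but without p50, make up 35 of them.

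High-background regions also differed in position and in the other subunits. Of these 62, 2 lay within 1 kb of a TSS (3.23%, 0.889% to 11.0%), against 123 of the other 430 (28.6%, 24.5% to 33.1%) and 20.1% of the union, and 9 against 251 touched a gene. The median distance to the closest TSS was 171320 bp and 12598 bp, respectively. RelB was called in 59 of the 62 (95.2%, 86.7% to 98.3%), and p50 in 25 (40.3%, 29.0% to 52.7%), compared with 87.9% and 86.0% in the other regions and 26.8% and 73.8% of the union. These intervals cover counting error only and are no test of the difference, since regions are not replicates and 39 of the 62 lay in runs of neighbouring RelA regions. Their RelB read density was 185 per kb at the median, against 62.4 in the others, whereas p50 density was 150 against 140.

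Many of the high-background regions were neighbours. When RelA regions less than 50000 bp apart were joined, 377 stood alone, 38 formed pairs and 77 formed 14 longer runs. The 7 runs with at least 5 regions lay on chromosomes 2, 10, 16 and Y, and their median fold enrichments were between 3.01 and 4.20. The longest run held 12 regions within 42.6 kb at chr16:44943251-44985802, of which 10 were high-background, 11 were called for RelB and 1 for p50. The next held 10 regions at chr2:132727887-132752722, all 10 called for RelB and 2 for p50. The 5 genes with the most RelA regions, with 12, 10, 9, 8 and 7 regions, had no name in the tables used here. For 4 of them every RelA region lay at least 91889 bp from the TSS, and for the gene on chromosome Y the nearest lay 946 bp away. Among named genes, CCR7 and BHLHE40 had the most RelA regions by closest gene or closest TSS, with 3 each. For both, the region farthest from the TSS, at −32323 bp and −147635 bp, had another closest gene.

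Among the region values, only the signal values give a view of the replicates. The paper's library quality metrics gave the first RelA replicate a medium flag and the second a very high one. The normalized strand cross-correlation, one of these metrics, was lower for RelA than for the other ChIPs, although all samples passed the paper's thresholds. What part this played in the RelA values was not tested. Signal value 1 was higher in 329 of 492 regions (66.9%, 62.6% to 70.9%). The scale of the signal values is not given, so the higher value need not mark the stronger replicate, and their agreement is described by rank. Agreement was not equal across the regions. Spearman's rho between the signal values was 0.52 over the 62 high-background regions and −0.06 over the other 430, given as a description because regions are not replicates and had been selected by their irreproducible discovery rate (IDR, the expected share of calls that would not repeat). An IDR below 0.001 was reached by 57 of the 62 (91.9%) and by 166 of the 430 (38.6%). Which signal value belongs to which replicate is not given in the sources used here.

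**Figure D3:**
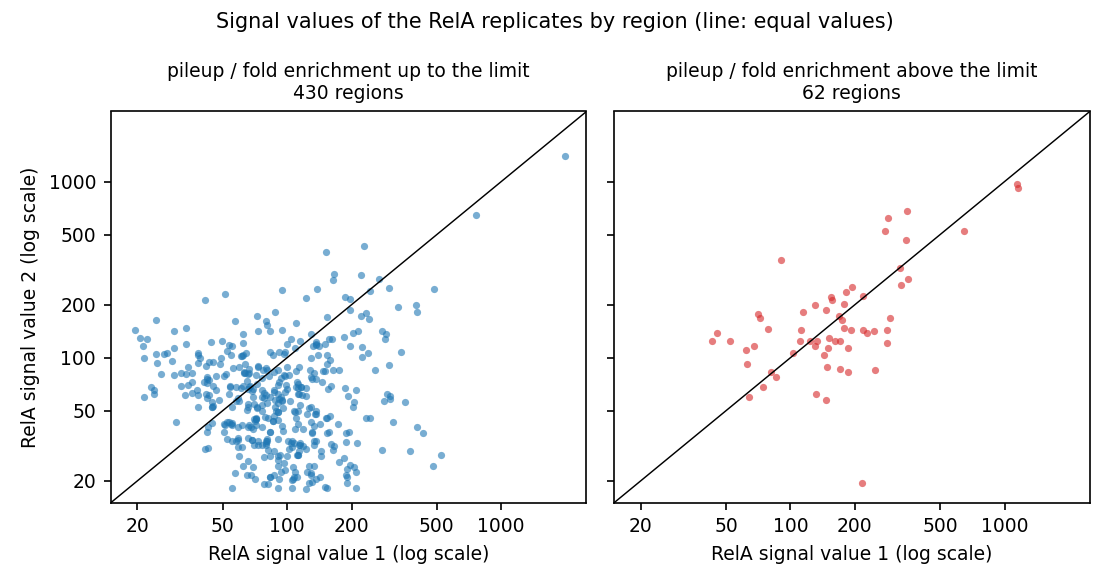
The 2 panels plot signal value 2 against signal value 1 (log scales) for the 430 RelA regions up to the limit of pileup over fold enrichment (left, blue) and the 62 above it (right, red), and the line marks equal values. The blue cloud shows no common rise apart from a few points with high values in both replicates, with a rho of −0.06, and the red points rise together, with a rho of 0.52.

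All 492 calls passed the stated IDR threshold of 0.05. The highest IDR was 0.0098, so the values ended just below 0.01, and no cut there is named in the sources used here. The 3 regions nearest to the threshold were chr19:1198686-1205335 (0.0098), chr12:6585266-6587547 (0.00931) and chr9:136421938-136423890 (0.00909). Their fold enrichments of 5.27, 4.55 and 5.74 were below the median of all RelA regions, and their pileups were 13 or 14 fragments.

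The genes at RelA regions were examined by lists that follow their roles. By closest gene or closest TSS, the 492 regions were assigned to 461 gene identifiers, of which 420 had 1 region. Names were available for 102 of the 461, so list members among the unnamed identifiers could not be counted. Of 190 genes in 9 lists, 72 could be paired with an identifier, 71 of these had a region of any subunit and 27 had a RelA region. Over all genes, 461 of the 8450 identifiers with a region of any subunit had a RelA region (5.46%). These 27 genes had 34 RelA regions, of which 33 were called for all 4 subunits, 17 overlapped a TSS and none was high-background (0 of 34, against 62 of 492 overall). Their median fold enrichment was 7.29, against 6.23 over all RelA regions. Since the available names favour genes regulated in the study, 27 of 72 is not a share of all genes of these kinds. It is not directly comparable with 5.46% either.

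Genes of the NF-κB subunits themselves all had a RelA region, each on the TSS and called for all 4 subunits. For comparison, 5.46% of all genes with a region had a RelA region. Of all RelA regions, 23.6% overlapped a TSS and 70.9% were called for all 4. Among the subunit genes, NFKB2, which encodes the p100 precursor of p52, had the highest fold enrichment, 12.4. Its region lay at chr10:104143410-104146372, with signal values of 197 and 117. NFKB1, which encodes the p105 precursor of p50, followed with 11.5 and signal values of 304 and 58.3. RELB had 8.71 (86.1 and 104), RELA itself 7.5 (71.5 and 79.4) and REL, which encodes c-Rel, 5.04 (72.0 and 52.4). The other subunits were stronger at these regions, with p50 fold enrichments from 35.6 to 91.0, and the only value below that of RelA was RelB at NFKB1, with 10.1.

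Of the IκB family, 3 of 6 genes could be paired, and NFKBIA and NFKBID had a RelA region. Over all genes with a region the share was 5.46%, which is not directly comparable because the paired genes favour regulated ones. NFKBID, which encodes the nuclear protein IκBNS, had a fold enrichment of 5.59, with signal values of 76.2 and 31.9, in a region 1362 bp downstream of its TSS. BCL3 had 5 regions and no RelA call, and its densest held 21.5 RelA reads per kb. Thus NFKBIA lay among the strongest RelA regions and NFKBID below the median.

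Genes of signalling feedback formed a similar range. TNIP1, whose product binds A20, had 2 RelA regions. That on the TSS had a fold enrichment of 9.32, above the RelB value of 7.02, and that upstream of it, at −3552 bp, had 5.87. TRAF1, an adaptor of TNF receptors, had 6.80 at 1597 bp downstream of the TSS, with signal values of 154 and 18.2, which ranked 114 and 488 among the 492 regions. Of the 4 paired genes on this list, IER3 was without a RelA call, although its densest region held 41.3 RelA reads per kb. Here too the 5.46% over all genes is not directly comparable.

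A RelA region was found at 3 of 9 paired regulators of cell death. The share over all genes with a region was 5.46%, but the paired genes favour those regulated in the study. After BIRC3, CFLAR (c-FLIP, which blocks caspase-8 activation) had a fold enrichment of 9.04 on its TSS, with signal values of 55.2 and 117. BCL2L1 (Bcl-xL) had 2 weaker regions. That on its TSS reached 4.92 and was called for p50 and p52 but not for RelB, and that 4490 bp downstream reached 4.51 and was called for all 4. BCL2, BCL2A1, BCL2L11, BIRC2, BBC3 and GADD45B had regions of other subunits but no RelA call.

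Cytokine, chemokine and receptor genes had RelA regions mostly away from the TSS. This was also so for RelA regions in general, of which 23.6% overlapped a TSS. CCR7, a receptor that guides lymphocytes to lymph nodes, had fold enrichments of 8.81 at a TSS distance of −32323 bp, 6.97 at 2865 bp and 6.24 at −11820 bp. IL21R, the interleukin-21 receptor, had 10.3 at 2835 bp, with signal values of 224 and 101. IFNGR2, a chain of the interferon-γ receptor, had 7.08 at −18866 bp, and CXCR4, the receptor of CXCL12, 6.71 at 60467 bp. CD70, the ligand of CD27, had 9.26 at −24721 bp, and TNFRSF9, the costimulatory receptor 4-1BB, 6.99 on its TSS. ICAM1, an adhesion molecule, had 5.37 on its TSS and was the only 1 of 7 paired genes of costimulation and adhesion with a RelA region. Over all genes with a region this share was 5.46%, which is not directly comparable. That list has 24 genes, and a RelA region at its unpaired members could not be counted. CCL5, CCL17, CCL22, LTA, CSF2, IL6, IL13, IL2RA, CD40, CD80 and CD86 were among the genes without a RelA call.

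Among transcription factor genes, 7 of 21 paired ones had a RelA region, and all of their 10 regions were called for all 4 subunits. The same 5.46% over all genes is not directly comparable, because the paired genes favour regulated ones. Of these 7, JUNB, a component of AP-1, had the highest fold enrichment. It was 14.3 in a region over its TSS and 12.6 in a region at −428 bp. The signal values were 163 and 277 in the first and 339 and 108 in the second. Genes without a name, among them those at the strongest RelA regions, could not be ranked here. In the first, the listed p50 peak had 9.35 and the p52 peak 102, although the whole region held similar densities of both, 266 p50 and 271 p52 reads per kb. IRF2, a regulator of interferon-responsive genes, had 2 regions with 8.82 each, IRF1 had 6.79 and IRF5 5.80. BATF, an AP-1 partner of lymphocytes, had 4.96 at −24439 bp. ETS1 had the lowest value, 4.67, at 253673 bp from its TSS. BCL6, PAX5, PRDM1, FOS, JUN and GATA3 had no RelA call.

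**Figure D4:**
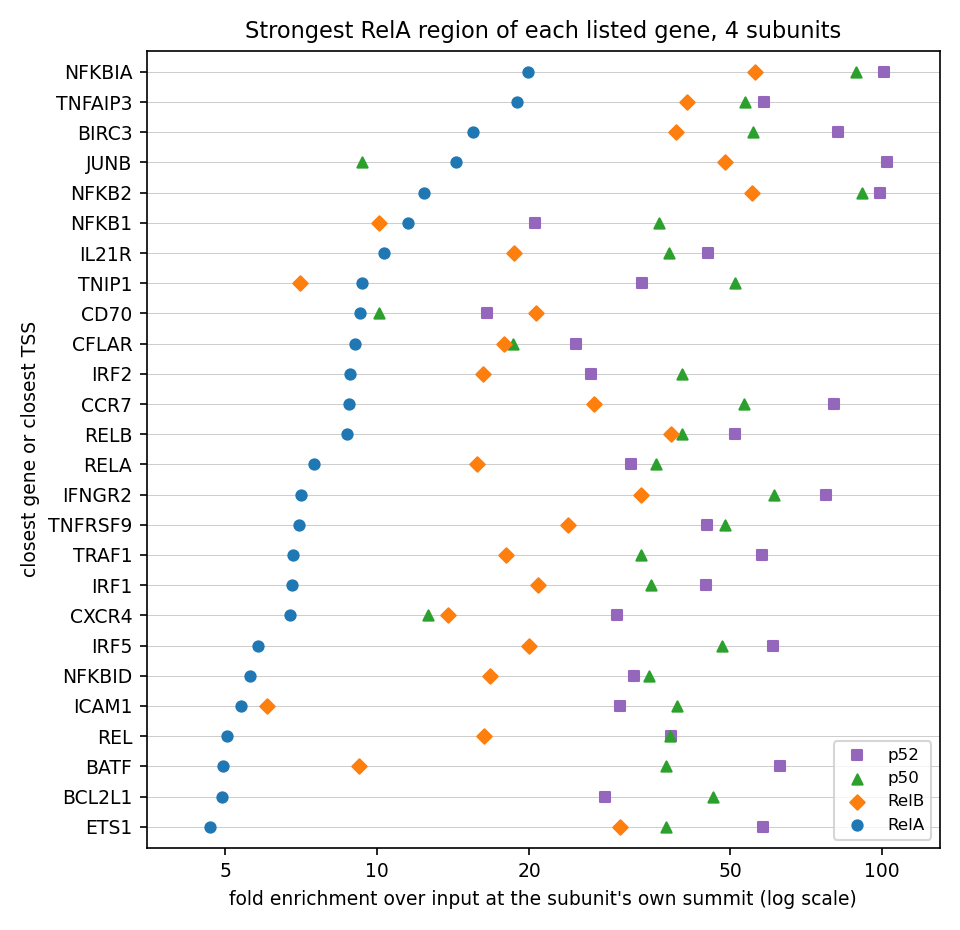
For 26 of the 27 listed genes the plot gives the fold enrichment (horizontal axis, log scale) of RelA (blue circles), RelB (orange diamonds), p50 (green triangles) and p52 (purple squares) in the RelA region with the highest RelA value. RelA runs from 4.67 at ETS1 to 19.9 at NFKBIA and lies left of the other subunits at all genes drawn except JUNB for p50, and NFKB1 and TNIP1 for RelB. BCL2L1 has no RelB call.

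RelA reads were also present at listed genes without a RelA call. For the 44 such genes the densest region held between 10.8 and 53.8 RelA reads per kb, with a median of 23.8, between the medians of uncalled (15.3) and called (38.4) regions. Only CD80, with 53.8, and IER3, with 41.3, reached the median of the called regions, and they were picked after their values were seen. A missing call does not show that RelA was absent, and the part that depth played was not tested.

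Of the amplicons in the primer list for ChIP-qPCR, those at BCL2L1, CCR7, JUNB, REL, TP73 and both NFKBIA promoter amplicons lay inside a RelA region. The RelA fold enrichment at TP73, a p53 family gene, was 7.55. The primers of the 2 amplicons nearest to a RelA summit are shown to mark the sites, both downstream of the TSS.
BCL2L1, chr20:29768868-29768953 (hg18), SP3: accatcacagggttttccag
BCL2L1, RP3: ccgggtaattttcgacagaa
CCR7, chr17:35971172-35971297 (hg18), SP4: ccaacatctaggtcaaccac
CCR7, RP4: ggccttgagtcagatcatcc
The RelA summit position minus the middle of the amplicon was 24.5 bp at BCL2L1 and −51.5 bp at CCR7. At NFKBIA it was −931 bp for the nearer promoter amplicon. Only the most significant RelA peak of a region is listed, so weaker summits do not appear.

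By combination, 349 of the RelA regions were called for all 4 subunits (70.9%). This pattern includes RelA, so its 2.35% of the union cannot exceed the 3.31% called for RelA and is no benchmark. A further 2539 regions of the union were called for RelB, p50 and p52 without RelA. RelB was called in 437 RelA regions (88.8%; 26.8% of the union), p50 in 395 (80.3%; 73.8%) and p52 in 399 (81.1%; 73.3%). Regions with all 4 had a median RelA fold enrichment of 6.95 and 35.3 RelA reads per kb. The 69 regions with RelA and RelB but without p50 had 3.43 and 162 reads per kb. Of these 69, 35 were high-background and 2 lay within 1 kb of a TSS. The other 34 still had a median pileup over fold enrichment of 11.2 and a median fold enrichment of 4.15, so the combination stood apart at this limit as well. RelA with RelB and p50 was found in 19 regions (median 4.79), and RelA with p50 and p52 in 23 (median 5.67).

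Regions of all 4 subunits were compared with the 2539 regions called for p50, p52 and RelB without RelA. With a RelA call, the median fold enrichment was 16.7 against 10.2 for RelB, 33 against 24 for p50, and 39.2 against 29.2 for p52. The quartiles overlapped for each subunit, for example 10.4 to 24.4 against 7.21 to 14.4 for RelB. The regions with a RelA call were also wider, with 1421 against 1233 bp, and RelA density was 35.3 against 19.5 reads per kb. No test was made, since a region is not a replicate.

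Within the 349 regions the order of RelA was loosely related to that of the others, with a rho across regions of 0.41 to RelB, 0.38 to p50 and 0.35 to p52. The median distance of the RelA summit was 22 bp to each other subunit, and 267 RelB, 273 p50 and 260 p52 summits lay within 50 bp. RelA had the higher fold enrichment than RelB in 21 regions, and none of these was high-background. They included chr8:72918261-72919462, chr2:8738558-8740808, NFKB1, TNIP1 and the TSS of the gene listed as MLL (8.10 against 5.93). RelA exceeded all 3 others in 1 region, chr5:71182334-71182860, with 7.54 against 6.48 for RelB, 5.61 for p50 and 4.58 for p52, and this region had a pileup over fold enrichment of 11.5.

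Regions called for RelA and no other subunit numbered 26. They were narrow, with a median width of 584 bp against 1321 bp for all RelA regions. Narrow width was not particular to RelA, since regions called for 1 other subunit alone were narrow as well. Their medians were 569 bp for RelB, 656 bp for p52 and 753 bp for p50. Of the 26 regions of RelA alone, 9 lay within 1 kb of a TSS. The strongest were chr1:2738133-2738722 with a fold enrichment of 7.43 and signal values of 34.5 and 88.1, chr14:70443295-70444073 with 7.06 on a TSS (63.2 and 82.5), and chr2:238014139-238014833 with 6.34 (62.3 and 136). Their pileups were 16 or 17 fragments, so they rest on few fragments. The p50 density in the 26 regions was 57.3 reads per kb and the p52 density 38, against medians of 47.5 and 43.9 in regions not called for p50 and p52, respectively.

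The classical pair of RelA and p50 without any other subunit was called in 4 regions. They were chr18:11840888-11841603 (RelA fold enrichment 5.60, p50 14.5), chr7:87400973-87402441 on a TSS (5.19 and 11.0), chr1:44959361-44960583 (4.25 and 13.6) and chr11:62363105-62366058 on a TSS (3.10 and 7.31). RelA with p52 alone was called in 2 regions, chr2:201044273-201045253 (6.03, p52 22.3) and chr17:45526662-45527776 on a TSS (4.90 and 9.52). In all 6 RelA was below its partner, and all RelA values were below the median of the 492 regions.

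A TSS was overlapped by 116 of the RelA regions (23.6%, 20% to 27.5%), and 125 (25.4%) lay within 1 kb. The fold enrichment changed little up to 100 kb, with medians of 6.82 over the TSS, 6.62 within 1 kb, 7.06 from 1 to 10 kb and 6.34 from 10 to 100 kb. Beyond 100 kb it was 4.23. Of the 108 regions there, 40 were high-background, and the read density of that group was 136 per kb, against 33.6 to 41.1 in the nearer groups. From 1 to 10 kb, 47 regions lay downstream and 32 upstream of the TSS.

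**Figure D5:**
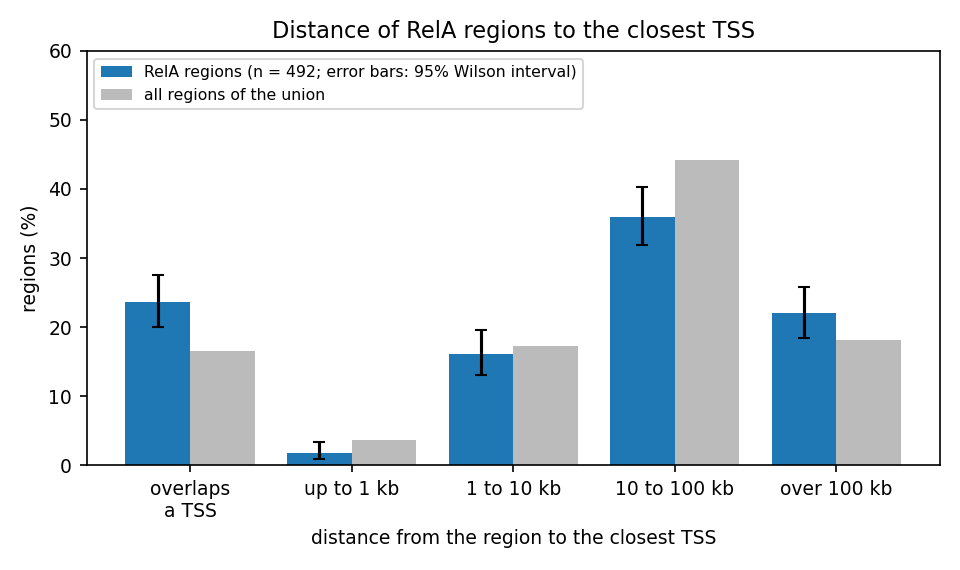
Bars give the percentage of regions (vertical axis) by distance to the closest TSS, blue for 492 RelA regions with 95% Wilson intervals as error bars and grey for all regions of the union, and regions without a TSS in the authors' search window (3 of RelA) are not drawn. RelA regions overlap a TSS in 23.6% of cases, above the grey bar of 16.5%, and lie at 10 to 100 kb in 36.0%, below 44.2%.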

How the data were processed

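ChIP-seq libraries of L1236 cells were used through the authors' table of union regions (hg18), in which 1 column per subunit stands for merged replicates. Bowtie, SAMtools and CASAVA are named in the submitters' processing notes, without a version. The authors aligned reads to hg18, kept unique reads, removed duplicates, reduced the libraries to equal size, called peaks with MACS per replicate and, after the IDR analysis, on merged replicates against input, and joined overlapping peaks. Whether reads were counted before or after that reduction is not given in the sources used here. Calls needed an IDR, deposited as a fraction, and an FDR, deposited as a q-value, below 0.05. The deposited counts are whole reads per region without normalization. The deposited fold enrichment is a ratio to input, the deposited pileup is a fragment coverage signal, and the deposited signal values are a score of unnamed scale, 1 per replicate. The authors assigned the closest Ensembl gene and TSS, where a distance of 0 is an overlap and a negative one is upstream. Mapped reads per library were not used here, so the depth is given as reads in regions.

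Reads per kb, pileup over fold enrichment, medians with binomial intervals and shares with 95% Wilson intervals were computed with pandas 2.3.3, numpy 2.4.6 and scipy 1.17.1 under Python 3.11.15, and plotted with matplotlib 3.10.9, after testing on simulated data. No test was run, because no library has its own value for the merged measures. Gene names came from the study's supplementary gene tables and, for 4 genes at RelA regions, from exact distances to the start sites in its primer list. Named were the 10 strongest regions by fold enrichment and by reads per kb, the 3 nearest to the highest IDR, the 3 strongest of RelA alone, all regions of RelA with only p50 or only p52, the 5 genes with the most regions, list members at a RelA region (up to 6 per list with values) and amplicon genes. ETS1, BHLHE40, MLL and other names outside this rule were chosen after their values were seen. Regions and lists were chosen with earlier results of these data known. Alternatives were stricter thresholds, filters on background and width, other windows and other measures of strength. The values of 1 listed gene are not reported here.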

Additional observations from a re-analysis of the deposited data

How the results depend on the processing

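An IDR below 0.01 removed no region, since the highest IDR was 0.0098, and so says nothing about stability. With an FDR below 1e-05 the median fold enrichment became 6.44 and the share with RelB 92.2%. A fold enrichment of at least 5 gave medians of 7.06 (fold enrichment), 21 (pileup) and 34.6 (reads per kb), with 63.2% of regions touching a gene and 85.9% called for all 4 subunits. Without high-background regions the median fold enrichment was 6.56, reads per kb 36, and these shares 58.4% and 76.7%. An IDR below 0.001, added after seeing the data, left 223 regions and 190 genes, with medians of 6.71, 35 and 50.5, and shares of 21.5% within 1 kb of a TSS, 44.4% touching a gene, 94.6% with RelB and 66.4% with all 4. A window of 5 kb held 33.7%. Summits within 250 bp gave 78.7% with RelB and 58.9% with all 4. Between the quartiles of width reads per kb were 36.5. Of the 50 regions strongest by fold enrichment, 23 were among the 50 strongest by signal value 1, 17 by signal value 2, 2 by pileup and 1 by reads per kb. The other alternatives stayed within the interval of the value, or within 1.5 times a count. No paired analysis was possible because the table merges the replicates, and leaving out each replicate was limited to 1 signal value at a time for the same reason. The lower quartile of pileup was 18 fragments, which limits the weak calls.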
